A study of Mus musculus with 45 samples.

Results

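The comparison described here is that of genotype on chow: DC16 mice (n = 5), heterozygous for deletions of the insulin receptor and IRS1 and without ApoE (IR+/- IRS1+/- ApoE-/-), against EC16 mice (n = 5), which lack ApoE only (ApoE-/-). These 10 of the 45 mice of the series were taken by their labels. All were females fed a chow (low-fat) diet for 16 weeks from 8 weeks of age, so the loss of ApoE, the diet and the age are shared, and by label the groups differ in the deletions of 1 copy of the receptor and of IRS1. How much sequence flanking the targeted alleles also differs between them is not given in the sources used here. RNA of adipocytes isolated from parametrial and periovarian fat was measured on 1 array per mouse, which gives a log2 level for each of 45037 probe sets. Other mice of the same 2 genotypes received a Western (high-fat) diet for 16 weeks (DW16, n = 9, and EW16, n = 8) or for 8 weeks (DW8, n = 5, and EW8, n = 6), and they share no animal with the chow comparison.

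The insulin receptor is a tyrosine kinase at the cell surface, and IRS1 is the docking protein it phosphorylates to recruit PI3K and, through it, AKT and mTOR. In fat cells this route moves the glucose transporter GLUT4 to the membrane, restrains lipolysis and induces the genes of fatty acid synthesis. Mice with 1 functional copy of each gene are a model of inherited insulin resistance, and the chow groups ask what the genotype does to adipocyte RNA when no high-fat diet is given.

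The array of DC16 mouse 4 stood apart from the other 9 before any test. On the first principal component of the 10 arrays (36.3% of the variance) it lay at 85.0, and the others between −20.9 and −2.76. Its mean correlation with the DC16 arrays was 0.9816, against 0.9908 or more for every other mouse within its group. It was more than 1 log2 unit outside the range of the other 9 mice at 1.32% of probe sets, against at most 0.198% for any other mouse. The second component (17.8%) was highest in EC16 mouse 5 at 43.0. Results are therefore given with and without these mice where they bear on them. Markers of the labelled cell type were abundant: Adipoq, the adipokine adiponectin, averaged 14.58 in DC16 and 14.56 in EC16 mice, and Fabp4, a fatty acid carrier of fat cells, 14.70 in both groups.

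The targeted genes came first. Insr, the insulin receptor gene, is read by 3 probe sets, of which 1434446_at is expressed well above the other 2. Its level was 9.24, 9.54, 9.39, 8.82 and 9.45 in the DC16 mice, against 10.21, 10.26, 10.01, 10.01 and 10.33 in the EC16 mice. Every DC16 mouse lay below every EC16 mouse. The difference was −0.88 log2 units (SE 0.132, 95% interval −1.17 to −0.59), which is a level of 0.543 of that in EC16 mice. It gave the smallest p that an exact two-sided permutation test of 5 against 5 mice allows (0.00794), yet it missed the threshold over all probe sets (limma, adjusted p = 0.157). Without DC16 mouse 4 the difference was −0.76. The other 2 probe sets, 1421380_at and 1450225_at, averaged 3.99 and 4.68 in DC16 mice and 4.12 and 4.68 in EC16 mice, and both overlapped between the groups.

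Irs1 did not show a matching difference. Its single probe set stood at 11.13, 10.81, 11.34, 10.53 and 11.35 in the DC16 mice, against 11.25, 10.82, 11.35, 11.56 and 11.06 in the EC16 mice, and the groups overlapped almost fully. The difference was −0.18 log2 units (SE 0.178, exact two-sided permutation p = 0.405), with a 95% interval of −0.57 to 0.21 that does not reach the loss of 1 full log2 unit. Without DC16 mouse 4, the lowest of the 10 mice, it was −0.05. Apoe, disrupted in both groups, read 7.42 ± 0.451 in DC16 mice and 6.86 ± 0.347 in EC16 mice (SD, n = 5 each, exact permutation p = 0.0714). Whether these probe sets lie in the deleted parts of the genes is not given in the sources used here, so a level does not show how much intact transcript is made.

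**Figure D1:**
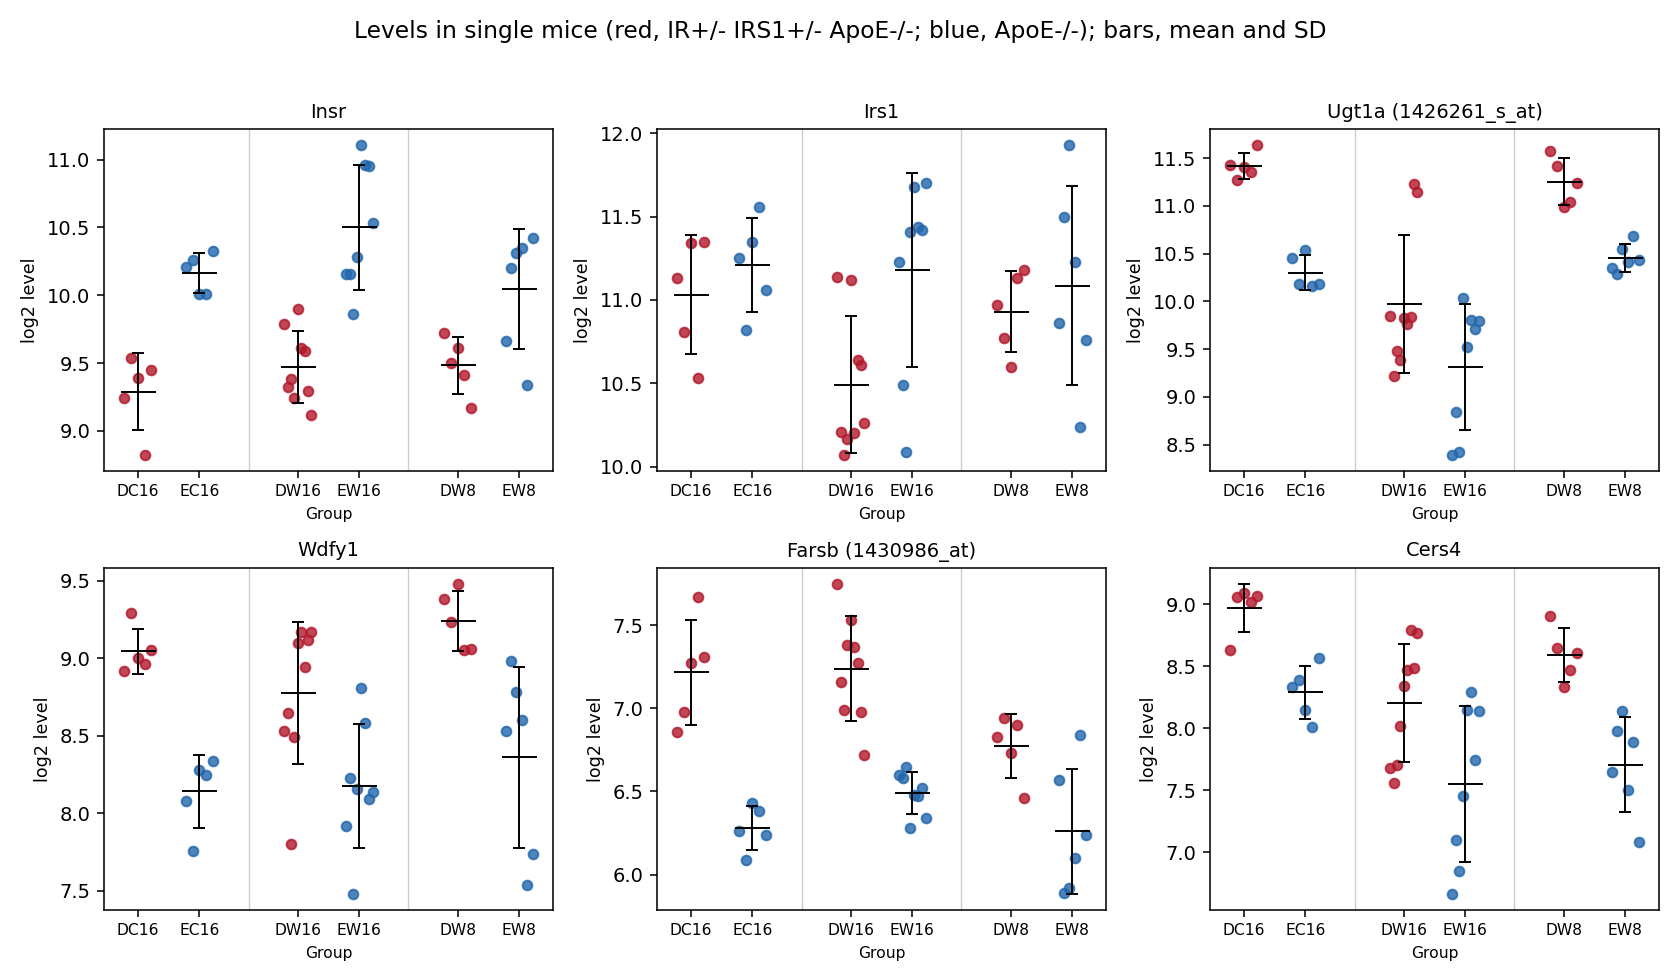
Log2 levels (y axis) of Insr, Irs1, Ugt1a, Wdfy1, Farsb and Cers4 in single mice of 6 groups (x axis), with IR+/- IRS1+/- ApoE-/- mice in red and ApoE-/- mice in blue. Horizontal bars are means and error bars SDs. On chow the red and blue points do not overlap in any panel other than that of Irs1.

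Across all probe sets few genotype differences on chow passed the threshold. That count depends on the number of mice and does not measure the size of the effect. Insr, at −0.88 and lower in every DC16 mouse, was itself not called (limma, adjusted p = 0.157). At an adjusted p under 0.01, limma called 1 of 45037 probe sets (0.00222%), and the same 1 at 0.05. At an unadjusted p under 0.05 there were 2824, of which 1536 were higher and 1288 lower in DC16 mice. The called probe set, 1426261_s_at, reads the Ugt1a gene cluster, whose products are UDP-glucuronosyltransferases that attach glucuronic acid to bilirubin, steroids and foreign compounds so that they can be excreted. It rose to 11.43, 11.27, 11.41, 11.36 and 11.64 in DC16 mice, against 10.45, 10.18, 10.54, 10.16 and 10.18 in EC16 mice. The lowest DC16 mouse lay above the highest EC16 mouse by more than the spread within either group (difference 1.12, SE 0.102, a ratio of 2.17, adjusted p = 0.00718). Without DC16 mouse 4 the difference was 1.13, with an adjusted p of 0.0177, so the call at 0.01 does not outlast the removal of that mouse. The same held for the removal of each of the other mice except EC16 mouse 3. The call was also lost with 1 spread estimated over all 7 groups (adjusted p = 1.0) and with the replicate number as a block (adjusted p = 0.19).

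Both other probe sets of the cluster, 1424783_a_at and 1426260_a_at, were also higher in every DC16 mouse. The first stood at 12.13, 11.93, 12.31, 12.35 and 12.35 in DC16 mice, against 11.38, 11.27, 11.48, 11.55 and 11.53 in EC16 mice. The second stood at 13.04, 12.86, 13.11, 13.09 and 13.26 in DC16 mice, against 12.29, 12.16, 12.46, 12.42 and 12.46 in EC16 mice. Their differences of 0.77 and 0.72 missed the threshold (adjusted p = 0.076 for both). Probe sets higher in every DC16 mouse made up 0.742% of all, and those lower in every DC16 mouse 0.522%.

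The annotation assigns these probe sets to 8 symbols at once, because the Ugt1a transcripts start at separate first exons, each with its own promoter, and share the exons that follow. The arrays therefore show that RNA of the cluster was more abundant without showing which first exon it came from. Promoters of 2 members, Ugt1a1, the transferase of bilirubin, and Ugt1a6a, which conjugates small phenols, are shown as examples of these start sites. They are from the RefSeq annotation of GRCm38.p6, both on the plus strand, each 300 bases long and reaching past the start, at chr1:88211709-88212008 and chr1:88134559-88134858. Capitals mark ATTAAC, a part of the motif bound by the hepatocyte factor HNF1, searched on both strands as ATTAAC and GTTAAT.
Ugt1a1: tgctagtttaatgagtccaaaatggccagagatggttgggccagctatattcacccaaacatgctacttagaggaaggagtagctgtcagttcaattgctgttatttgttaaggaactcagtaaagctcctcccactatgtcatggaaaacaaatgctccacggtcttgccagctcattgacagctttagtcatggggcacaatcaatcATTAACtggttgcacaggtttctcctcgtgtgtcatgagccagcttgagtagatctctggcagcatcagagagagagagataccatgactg
Ugt1a6a: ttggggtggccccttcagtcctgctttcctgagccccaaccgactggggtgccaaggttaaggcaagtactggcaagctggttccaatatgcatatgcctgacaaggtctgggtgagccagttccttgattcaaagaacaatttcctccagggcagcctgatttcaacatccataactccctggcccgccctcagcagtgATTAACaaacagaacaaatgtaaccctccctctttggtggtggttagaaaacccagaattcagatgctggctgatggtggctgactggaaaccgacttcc
Of 8 Ugt1a promoters searched, 4 hold these letters on either strand, as do 7.1% of all 32851 promoters of the same length. These promoters include that of Ugt1a8 and not that of Ugt1a6b, so they differ from the symbols of the probe sets. A match is a description of the sequence only.

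Of the other probe sets with the 20 smallest p, none passed an adjusted p of 0.05. Wdfy1, Farsb, Cers4 and Stk25, all on the chromosomes of the targeted genes, are given first. Wdfy1, an endosomal adaptor protein, stood at 8.92, 9.29, 9.00, 8.96 and 9.05 in DC16 mice, against 8.08, 7.76, 8.28, 8.25 and 8.34 in EC16 mice (difference 0.90, SE 0.118, adjusted p = 0.076). Farsb, the beta subunit of the phenylalanine tRNA synthetase, had 6.86, 6.98, 7.27, 7.67 and 7.31 in DC16 mice on the probe set 1430986_at, against 6.26, 6.09, 6.43, 6.38 and 6.24 in EC16 mice (0.94, SE 0.14, adjusted p = 0.157). Cers4, a ceramide synthase, had 8.63, 9.06, 9.09, 9.02 and 9.07 in DC16 mice on 1417780_at, against 8.33, 8.39, 8.15, 8.01 and 8.57 in EC16 mice (0.68, SE 0.122, adjusted p = 0.513). In each of these genes the groups were fully apart. Picking the 20 by their small p in the same mice favours such separation. Over all probe sets 0.742% were higher and 0.522% lower in every DC16 mouse. Stk25, a serine/threonine kinase, was the reverse, with 7.32, 7.38, 7.64, 7.11 and 7.45 in DC16 mice, against 7.87, 8.25, 7.89, 7.90 and 7.98 in EC16 mice (−0.60, SE 0.11, adjusted p = 0.563).

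Among the rest of these 20, values were higher in every DC16 mouse for Gm4274 (0.59), D830026I12Rik (0.52), Neat1, the noncoding RNA that builds nuclear paraspeckles (0.94), Trub2, a mitochondrial pseudouridine synthase (0.96), and 1441769_at, which has no gene listed (0.76). They were lower in every DC16 mouse for the RNA-binding protein gene Elavl1 (−0.59 on 1440464_at), the semaphorin receptor Plxnc1 (−0.61), the magnesium transporter Nipal1 (−0.84), the pseudouridine synthase Pus3 (−0.60), the interferon-induced genes Ifitm2 (−0.46) and Irgm2 (−0.44), and 1437558_at, which has no gene listed (−0.54). The most positive difference among the 50 probe sets with an unadjusted p under 0.001 was that of Hephl1, a relative of hephaestin (1.47), named after its value was seen, which differed by −0.12 over the Western groups. Adjusted p-values of the 12 ran from 0.157 to 0.761.

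Probe sets of 1 gene did not always move together. Of the 4 Farsb probe sets the others differed by 0.19 to 0.42. Of the 6 for Elavl1, 1440464_at was dim. It averaged 4.28 in DC16 and 4.87 in EC16 mice, below the medians of the 10 arrays (5.52 to 5.58). The most abundant, 1448151_at, averaged 8.80 and 8.43 and ran the other way with 0.37. Of the 5 for Wdfy1 the remaining 4 ranged from −0.07 to 0.68. Each value above is thus that of 1 probe set and not of all transcripts of its gene.

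Several leading genes sit beside the targeted loci. By gene order in the GRCm38.p6 annotation, counting genes with a probe set, Wdfy1 and Farsb lie 6 and 13 genes before Irs1 on chromosome 1, and the Ugt1a cluster and Stk25 lie 62 and 123 genes after it. On chromosome 8, where Insr is the first gene with a probe set, Elavl1 and Cers4 lie 32 and 34 genes away. Of the 10 smallest p-values in the whole comparison, 6 belong to probe sets within 100 genes of Irs1 or Insr and 1 to Insr itself. The 3 Ugt1a probe sets read the same transcripts and are 3 of those 6.

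Within 50 genes of either locus, which was 50 on each side of Irs1 and 50 on the one side of Insr, 0 of 301 probe sets passed the adjusted threshold, while 33 (11.0%) had an unadjusted p under 0.05, against 6.24% of the probe sets outside these windows. At an unadjusted p under 0.001, a limit chosen after the values had been seen, there were 6 of 301 (1.99%), against 50 of all 45037 (0.111%) and 43 of the 44732 outside these windows (0.0961%). Besides Wdfy1, Farsb, Elavl1 and Cers4 these were Fcor and Cd209f. Fcor, a corepressor of FOXO1 known from mouse adipocytes, lies 14 genes from Insr and stood at 8.54, 8.43, 8.50, 8.97 and 8.61 in DC16 mice, against 8.18, 8.22, 7.91, 7.80 and 7.44 in EC16 mice (0.70, SE 0.153). Cd209f, of the DC-SIGN family of C-type lectins, lies 23 genes away and stood at 8.66, 8.52, 7.83, 8.50 and 8.33 in DC16 mice, against 9.05, 9.26, 9.09, 8.72 and 9.09 in EC16 mice (−0.67, SE 0.152). Both were fully apart between the groups, which their selection by a small p in the same mice favours.

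**Figure D2:**
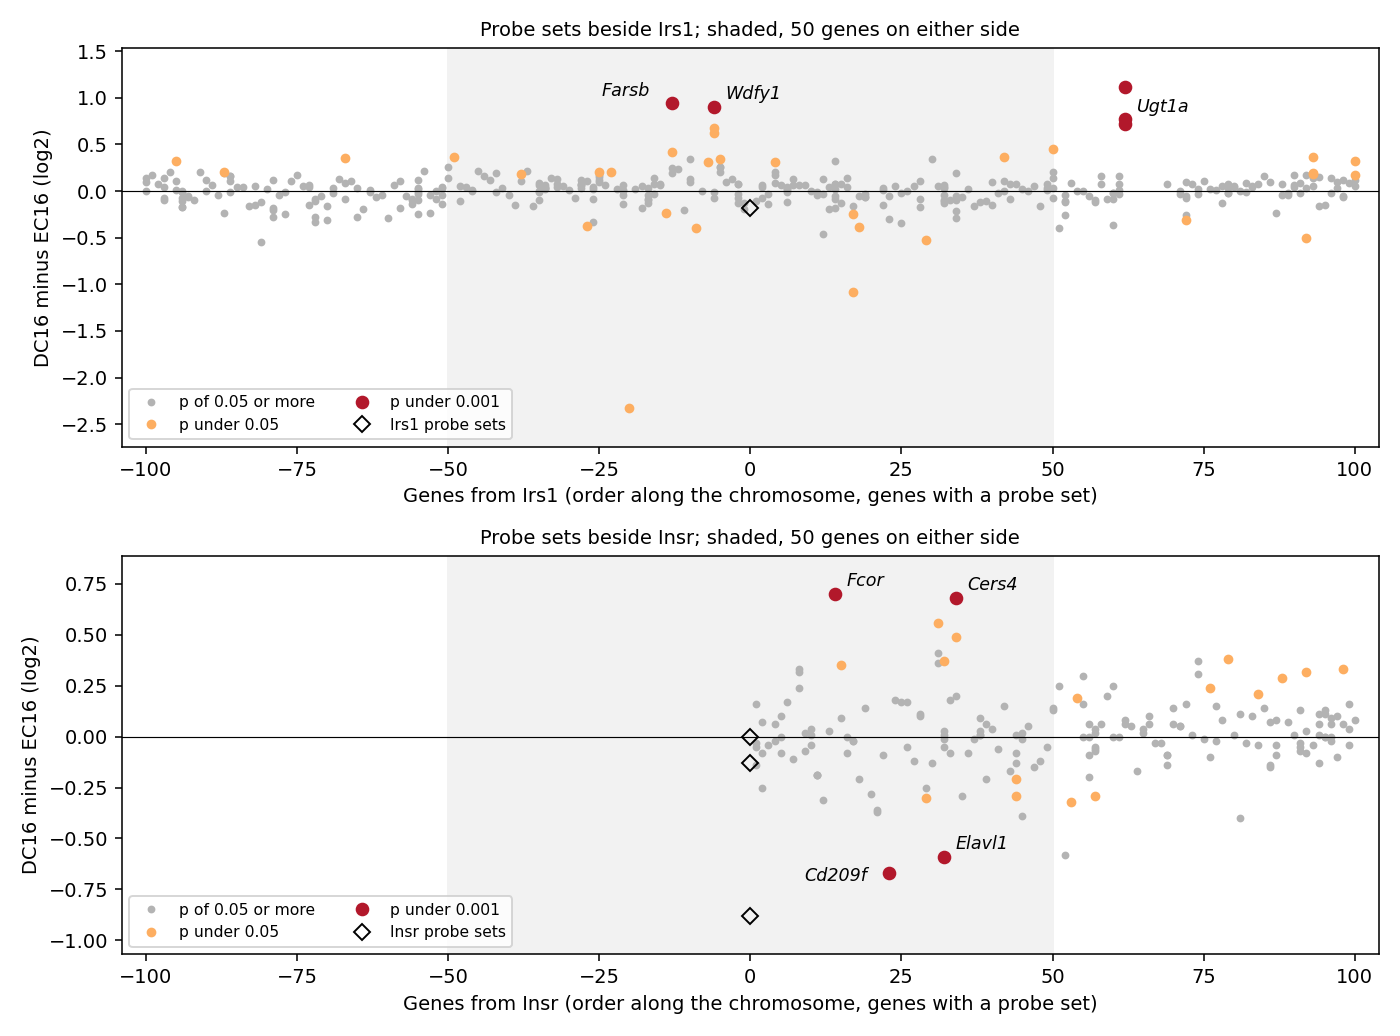
Difference between DC16 and EC16 mice in log2 units (y axis) of each probe set within 100 genes of Irs1 (top) and Insr (bottom), by the number of genes between it and the locus (x axis). Red points have an unadjusted p under 0.001, orange points a p under 0.05, diamonds are the targeted gene and the shading marks 50 genes on either side. Probe sets of genes right next to Irs1 differ little, and the red points lie 6 to 62 genes from Irs1 and 14 to 34 genes from Insr.

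The direction varied from gene to gene beside the same locus. Of the 33 probe sets with an unadjusted p under 0.05 within 50 genes, 20 were higher and 13 lower in DC16 mice. The immediate neighbours of Irs1 showed little: Dock10 differed by −0.13 and −0.19 on its 2 probe sets and Rhbdd1 by −0.11. Arhgef18, next to Insr, ranged from −0.14 to 0.16 on 4 probe sets. For all genes beside the loci, including Ugt1a, Wdfy1, Farsb and Cers4, an effect of the deletions and one of sequence linked to them cannot be told apart in this design.

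The Western-diet mice give a second measurement of the same genotypes in animals that played no part in this selection. Averaged over 8 and 16 weeks of diet, IR+/- IRS1+/- ApoE-/- mice differed from ApoE-/- mice at an unadjusted p under 0.05 in 7.63% of probe sets. Of the 9 probe sets within 100 genes of Irs1 or Insr that had an unadjusted p under 0.001 on chow, all 9 had the same sign in the Western mice, each with an unadjusted p under 0.05. Of the 40 such probe sets elsewhere in the genome, 26 had the same sign and 2 of these, Stk25 and Irgm2, a p under 0.05. The 9 include the 3 Ugt1a probe sets, which read the same transcripts and are not separate findings. These 3 lie outside the window of 50 genes used above. With that window, all 6 probe sets beside the loci had the same sign and a p under 0.05. Of the 43 elsewhere, 29 had the same sign and 5 of these a p under 0.05. The mean was chosen as a summary after the values had been seen. In the single comparisons, where 4.13% of probe sets passed at 8 weeks and 14.6% at 16 weeks, the 9 passed with the same sign in 9 cases at 8 weeks and 5 at 16 weeks, and the 40 elsewhere in 3 cases at 8 weeks and 8 at 16 weeks.

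Insr was lower in the Western mice too. Its level ran from 9.12 to 9.90 with a median of 9.38 in DW16 mice, against 9.86 to 11.11 with a median of 10.41 in EW16 mice, and the groups overlapped by 1 DW16 and 1 EW16 mouse (exact permutation p = 8.23e-05). In DW8 mice it was 9.17 to 9.72, and in EW8 mice 9.34 to 10.42, where the overlap was wider (exact permutation p = 0.0368). Over both durations the difference was −0.80 (SE 0.136, limma adjusted p = 0.045). Irs1, at −0.18 on chow, was −0.69 between DW16 and EW16 mice (exact permutation p = 0.0148) and −0.16 between DW8 and EW8 mice (exact permutation p = 0.595). Of these, 7 DW16 and 3 EW16 arrays span a narrower range of values than the rest. Without them only DW16 mice 8 and 9 and EW16 mice 4 to 8 were left. The 16-week difference was then −1.56 for Insr and −1.10 for Irs1.

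Ugt1a behaved likewise. On 1426261_s_at, DW8 mice ranged from 10.99 to 11.57 and EW8 mice from 10.29 to 10.69 without overlap (difference 0.80, exact permutation p = 0.00216). DW16 mice ranged more widely, from 9.22 to 11.23 with a median of 9.83, and EW16 mice from 8.39 to 10.04 with a median of 9.62, so those groups overlapped (0.66, exact permutation p = 0.0731). Without the narrow-range arrays the 16-week difference was 1.42. Farsb was higher by 0.63 over the Western groups on 1430986_at (SE 0.103, limma adjusted p = 0.0416). Its other probe sets, all more abundant, differed by −0.32, −0.29 and 0.12. Wdfy1 was higher by 0.74 on 1424749_at, with its other probe sets at −0.15 to 0.21. Cers4 was higher by 0.77 on 1417780_at and Fcor by 0.98. Stk25 was lower by 0.68, with DW8 mice at 7.49 to 7.80 and EW8 mice at 8.09 to 8.35.

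**Figure D3:**
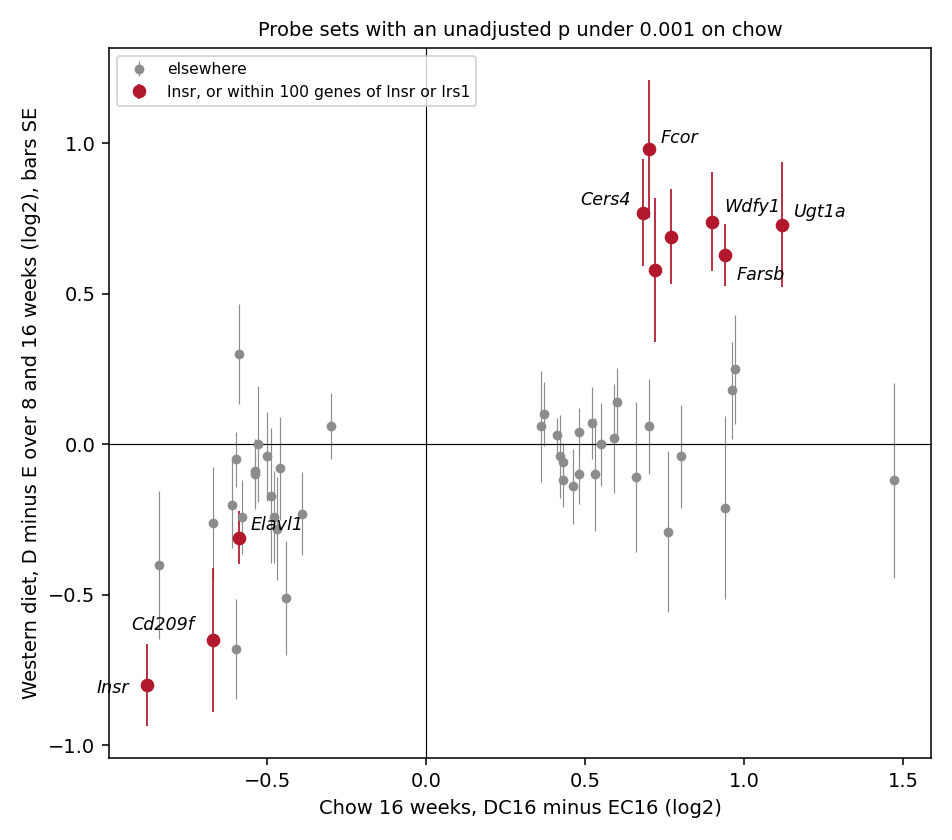
Difference between the genotypes on chow at 16 weeks (x axis, log2) and on Western diet over 8 and 16 weeks (y axis, log2, bars SE) for the 50 probe sets with an unadjusted p under 0.001 on chow. Red points are Insr and the 9 probe sets within 100 genes of Insr or Irs1, and each has the same sign on both axes. Grey points, elsewhere in the genome, scatter around 0 on the y axis, with 26 of 40 on the same side as on chow.

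The test of whether the genotype effect at 16 weeks differed between Western diet and chow depended on the narrow-range arrays. With all arrays limma called 0 of 45037 probe sets at an adjusted p under 0.01 or 0.05, and 2844 (6.31%) had an unadjusted p under 0.05. Without the narrow-range arrays, DW16 mice 8 and 9 alone stood for their group. That fit called 0 at 0.01 and 2 at 0.05, and 8388 (18.6%) had an unadjusted p under 0.05. For Insr the effect on Western diet minus that on chow was −0.15 with all arrays (adjusted p = 0.923) and −0.68 without the narrow-range ones (adjusted p = 0.161). For Irs1 it was −0.52 (adjusted p = 0.813) and −0.92 without them (adjusted p = 0.0861). For Ugt1a on 1426261_s_at the sign turned, with −0.46 (adjusted p = 0.859) and 0.30 without them (adjusted p = 0.395). None of the 3 passed the threshold in either fit, which does not show that the effects are alike. Neat1, higher by 0.94 in DC16 than in EC16 mice, differed by −0.54 between DW16 and EW16 mice, or −0.07 without the narrow-range arrays, and its interaction was −1.49 (adjusted p = 0.786), or −1.02 without them (adjusted p = 0.121).

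Of 605 genes in the 36 lists measured here, none was called. The lists are therefore described by values, beside all 18193 genes, of which 3.67% were higher and 3.31% lower at an unadjusted p under 0.05, with a median difference of 0.00. In the insulin route itself little else stood out. Of 17 receptors and docking proteins measured, Insr alone was lower at that level and none higher (median −0.09), followed by the adaptors Grb10 (−0.23) and Sh2b2 (0.23). PI3K and AKT genes had 0 of 23 in either direction (median −0.04, with Pik3r3 at −0.17 and Pik3r1, the main regulatory subunit, at −0.15). Of 18 genes of mTOR signaling 2 were higher, or 0 without EC16 mouse 5, among them the mTOR inhibitor Deptor (0.61). Of 14 SOCS proteins and tyrosine phosphatases 1 was higher, or 3 without DC16 mouse 4, and 2 lower, with Socs1 at −0.43 and Cish at −0.31.

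Genes that FOXO factors induce and insulin represses had a median of −0.05, with 1 of 17 in each direction. Pck1, of glycerol synthesis for triglyceride, had the largest negative value (−0.60), which was −0.30 without DC16 mouse 4. Klf15, a transcription factor of adipocyte metabolism, had 9.62, 9.87, 9.58, 9.69 and 9.84 in DC16 mice, against 9.28, 9.53, 9.10, 8.94 and 8.77 in EC16 mice. It was higher in every DC16 mouse (0.60, SE 0.133, adjusted p = 0.764). Between D and E mice on Western diet it differed by 0.14 (limma adjusted p = 0.723).

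Of 7 metabolic lists, those of lipogenesis, glucose use and cholesterol synthesis had medians above 0.2 in DC16 mice, and lower medians without EC16 mouse 5. Of 22 lipogenesis and triglyceride synthesis genes all had a positive difference (median 0.43), and 5 passed an unadjusted p under 0.05. Scd2, a stearoyl-CoA desaturase, had 13.86, 13.38, 13.43, 13.45 and 13.58 in DC16 mice, against 12.97, 11.50, 13.30, 13.43 and 10.65 in EC16 mice (1.17, SE 0.463). The DC16 mice were alike, and EC16 mice 2 and 5 were low. Without EC16 mouse 5 the difference of Scd2 was 0.74, that of Pnpla3, a lipid droplet acyltransferase and lipase, was 0.65 in place of 0.87, and the median of the list was 0.17 with 4 genes passing. The median deviation of the list from the 10-mouse mean was −1.04 in EC16 mouse 5, between −0.07 and 0.10 in the other EC16 mice and between 0.12 and 0.24 in DC16 mice. In the Western mice the list had a median of −0.15, with 0 of 22 higher and 1 lower.

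Glucose uptake and glycolysis genes were similar. Of 19, 5 were higher and 0 lower at an unadjusted p under 0.05 (median 0.21, or 0.11 without EC16 mouse 5). Slc2a4, which encodes GLUT4, had 12.02, 11.97, 11.76, 11.51 and 12.03 in DC16 mice, against 11.54, 11.21, 11.52, 11.52 and 10.47 in EC16 mice (0.60), and Pfkl, the liver form of phosphofructokinase, differed by 0.62. Cholesterol synthesis and LXR target genes had 4 of 18 higher (median 0.25, or 0.14 without that mouse), with the lanosterol synthase Lss at 1.09 and the mevalonate decarboxylase Mvd at 1.02. Lss was highest in DC16 mouse 4 (11.47) and lowest in EC16 mouse 5 (7.86). Oxidative phosphorylation (median 0.07), fatty acid oxidation (−0.04) and branched-chain amino acid breakdown (−0.04) had 2, 1 and 0 genes higher and none lower, and the 2 of oxidative phosphorylation did not pass without DC16 mouse 4 or without EC16 mouse 5. Lipolysis and droplet genes had 2 of 16 higher and 1 lower (−0.03).

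Droplet proteins and adipokines held 2 genes of small p. Plin2, a coat protein of lipid droplets, had 14.02, 14.00, 14.15, 14.12 and 14.21 in DC16 mice, against 13.78, 13.66, 13.67, 13.90 and 13.70 in EC16 mice (0.36, SE 0.0769, adjusted p = 0.761). Lep, the adipokine leptin, had 9.73, 10.83, 10.27, 10.91 and 10.21 in DC16 mice, against 9.64, 9.56, 9.72, 9.81 and 9.66 in EC16 mice (0.71, SE 0.192, adjusted p = 0.764). Only DC16 mouse 1 fell within the range of the EC16 mice for Lep. Plin2 was named after its values were seen.

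Interferon response and antigen presentation genes ran lower in DC16 mice. Of 21, 20 had a negative difference (median −0.23), 10 were lower at an unadjusted p under 0.05 and 0 higher, against 3.31% of all genes lower. The list median per mouse lay between −0.19 and 0.01 in DC16 mice and between 0.05 and 0.17 in EC16 mice, without overlap. The lipogenesis list, given above, did not overlap between the groups either. Without DC16 mouse 4 the median was −0.25 with 8 genes lower, and without EC16 mouse 5 it was −0.17 with 7. In the Western mice the median was −0.22, with 7 of 21 lower and 0 higher, against 4.32% of all genes lower and 4.14% higher. No member was called in either set of mice. Medians of the lists in the Western mice ran from −0.34 (endothelial markers, 5 of 17 lower) to 0.07 (brown fat genes, 3 of 13 higher). NF-kB and cytokine genes had −0.25 with 2 of 19 lower, and immediate early genes −0.22 with 1 of 28 lower. These Western values include the narrow-range arrays.

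The members differ in role. Ifit1 and Ifit2, which bind foreign RNA, had the largest differences (−0.58 and −0.61), and Ifit1 stood at 9.54, 9.39, 9.40, 9.22 and 8.91 in DC16 mice, against 10.19, 10.39, 9.10, 10.02 and 9.64 in EC16 mice. EC16 mouse 3 was low for Ifit1 and the groups overlapped. The genes below were picked after their values were seen. Cxcl10, an interferon-induced chemokine, stood at 12.80, 12.76, 12.63, 12.53 and 12.66 in DC16 mice, against 13.04, 12.90, 13.26, 13.00 and 12.93 in EC16 mice (−0.35, SE 0.0892). Psmb9, a subunit of the immunoproteasome, stood at 9.07, 8.95, 9.19, 8.72 and 9.42 in DC16 mice, against 9.48, 10.00, 9.48, 9.44 and 9.48 in EC16 mice (−0.50, SE 0.143). Both were lower in every DC16 mouse, and Tap1, the peptide transporter of antigen presentation (−0.47), overlapped by 1 mouse of each group. In the whole list of 21 genes, 2 were lower in every DC16 mouse, against 105 of all 18193 genes.

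Markers of other cells had negative medians as well. In bulk RNA, fewer cells of a type and less RNA per cell cannot be told apart. Macrophage markers had a median of −0.21 with 1 of 20 lower at an unadjusted p under 0.05, or −0.13 with 0 lower without EC16 mouse 5, and their summed linear level, in units of 1000, was 11.6 to 26.1 in DC16 mice, against 17.4 to 26.5 in EC16 mice. Lymphocyte markers had a median of −0.07 with 2 of 16 lower (14.4 to 21.6 in DC16 mice, against 14.7 to 26.2 in EC16 mice), and fibroblast and stromal markers −0.29 with 4 of 19 lower, or −0.10 with 0 lower without EC16 mouse 5 (76.4 to 98.2 in DC16 mice, against 81.1 to 123 in EC16 mice). Mesothelial markers had a median of −0.35, or −0.20 without that mouse, and 0 of 14 passing. Adipocyte markers summed to 186 to 209 in DC16 mice, against 180 to 205 in EC16 mice (median 0.04). The part of these cells in the interferon values was not tested.

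EC16 mouse 5 was the highest of the 10 mice in the mesothelial (0.84), stromal (0.63), proliferation (0.53) and macrophage (0.40) lists. Inha, the inhibin alpha subunit made by ovarian cells, had the most negative difference of any gene (−2.33, SE 0.874, adjusted p = 0.776). It stood at 4.98, 4.28, 4.50, 4.04 and 4.28 in DC16 mice, against 6.99, 4.27, 8.89, 4.43 and 9.15 in EC16 mice. Hsd3b1, a steroidogenic enzyme, was likewise high in EC16 mice 3 (9.97) and 5 (8.89), and at most 5.76 in the other 8. Both are markers of the ovary, beside the dissected fat, and belong to a list of 16 measured genes of ovary, uterus and oviduct. That list had a median of −0.05, with 5 genes higher and 11 lower in the mean. Its median deviation was 0.07 in EC16 mouse 3 and 0.15 in EC16 mouse 5, against 0.13 in DC16 mouse 4. Whether ovarian RNA was present was not tested. Inha lies 20 genes before Irs1, so it also counts among the neighbours with an unadjusted p under 0.05.

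**Figure D4:**
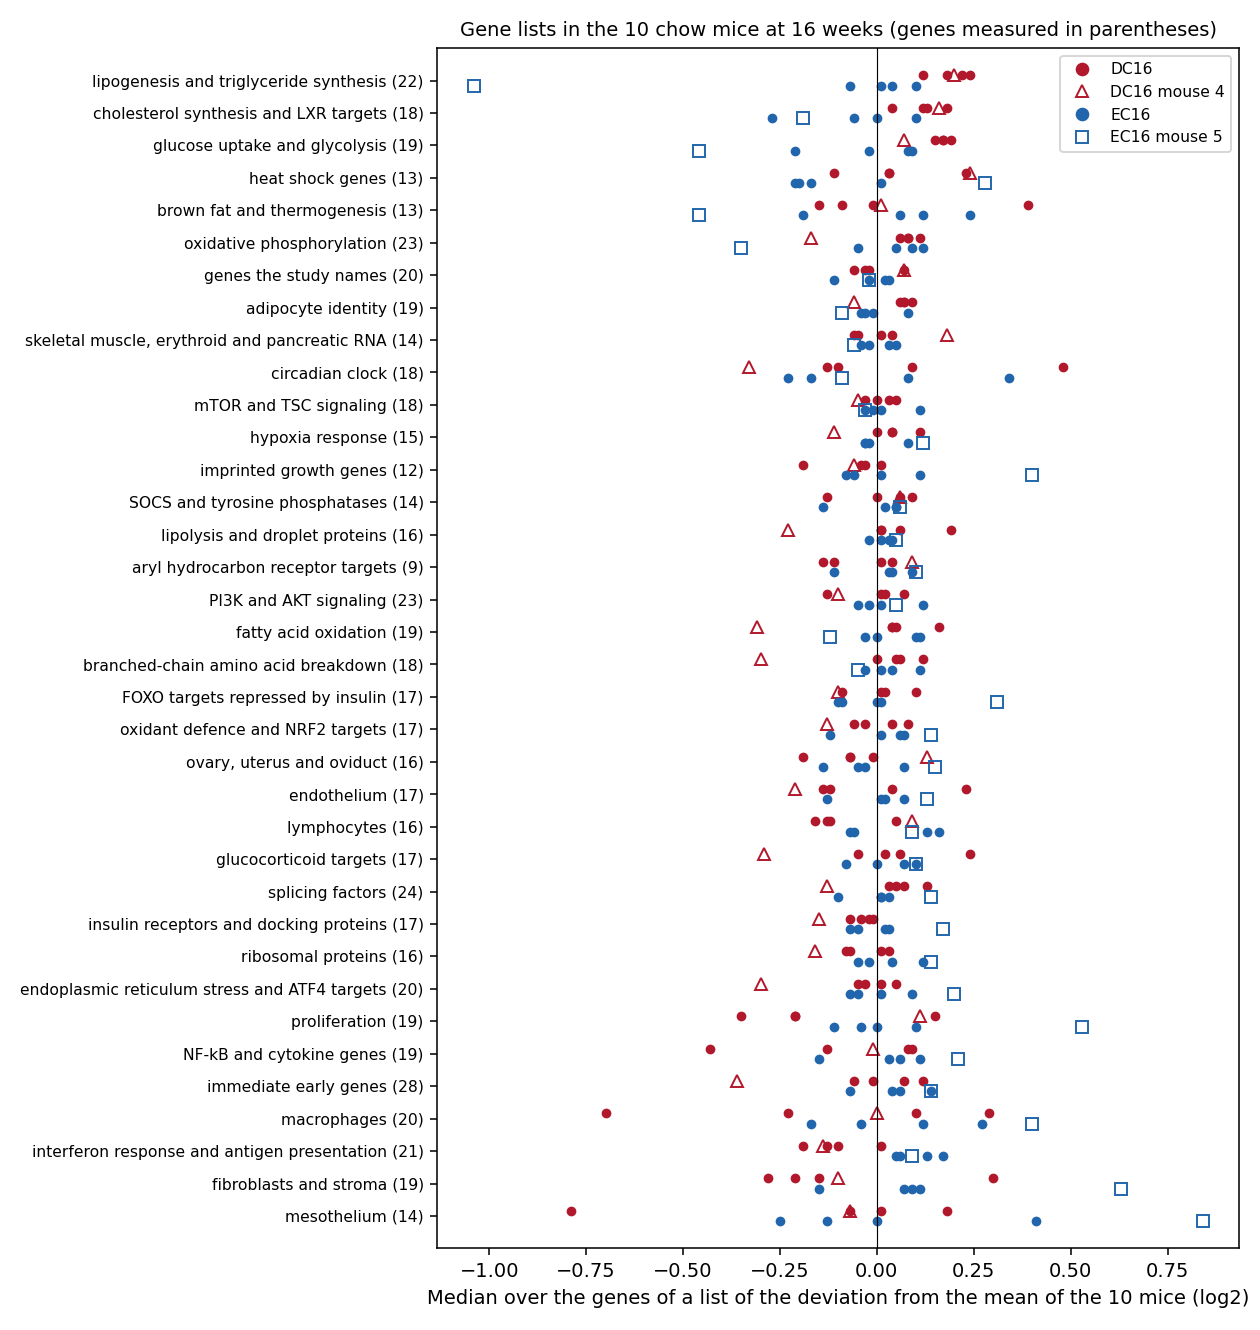
Median over the genes of each list (rows, genes measured in parentheses) of the deviation from the mean of the 10 chow mice (x axis, log2 units), with DC16 mice in red above EC16 mice in blue. Each point is 1 mouse, triangles are DC16 mouse 4 and squares EC16 mouse 5. EC16 mouse 5 lies at −1.04 for lipogenesis and at 0.84 for mesothelium. The interferon and lipogenesis lists each separate the groups, with that mouse and without it.

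Of the remaining lists several had few or no genes at an unadjusted p under 0.05. Immediate early genes (median −0.15, or −0.03 without DC16 mouse 4, 0 of 28 in either direction), hypoxia (−0.01, 0 of 15), circadian clock (0.02, 0 of 18), ribosomal protein (−0.09, 1 of 16 lower), splicing factor (−0.08, 1 of 24 higher) and NRF2 target genes (−0.05, 0 of 17) were of this kind. The clock output gene Dbp differed by 0.36 with an SE of 1.10, and Vegfa, the angiogenic factor, by −0.28. The others are given beside the 3.67% higher and 3.31% lower of all genes, shares that a single gene of a list of 20 already exceeds. Heat shock genes had 2 of 13 higher (median 0.17, Hspa1b 0.37), which was 6 without EC16 mouse 5 (median 0.22) and 1 without DC16 mouse 4. Proliferation genes had 3 of 19 lower (−0.14), or 2 without EC16 mouse 5, endoplasmic reticulum stress genes 1 of 20 lower (−0.11, Atf4 −0.28) and aryl hydrocarbon receptor genes 2 of 9 lower, namely Ahr (−0.36) and its partner Arnt (−0.39), while the target Cyp1a1 differed by 0.26. NF-kB and cytokine genes had 2 of 19 lower (−0.14), or 0 without either of these mice, with the cyclooxygenase Ptgs2 at −0.74. Among brown fat genes Ucp1, the uncoupling protein, differed by −0.52 with an SE of 0.541 and Prdm16, a regulator of brown fat identity, by 0.48. Of the imprinted growth genes Nnat was at −0.97 and Peg3 at −0.64.

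Of 20 genes that the study names, 3 were higher and 1 lower at an unadjusted p under 0.05 in DC16 mice, with a median of 0.05, and 1 higher and 1 lower without EC16 mouse 5. Atxn2 (0.40), Chd7, a chromatin remodeler (0.35), and Mtor (0.23) were higher at that level and Map1b, of microtubules, lower (−0.37). The study used Map1b as a negative control for Klf4. Klf4 differed by −0.16, Irs2, the other main docking protein of the insulin receptor, by −0.05, Tsc2, the brake on mTOR, by 0.13, and Socs3 by 0.12. For Klf4 this is 1417394_at, its brightest probe set, and not the one that the study lists as differing with diet. Akt1 and Akt2 differed by −0.10 and 0.02. None passed the adjusted threshold (adjusted p = 0.773 or more).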

How the data were processed

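Adipocyte RNA of each mouse was hybridized by the authors to an Affymetrix MG430-2.0 array. The deposited values are log2 levels per probe set, normalized by the authors with RMA, and were used without further scaling or filter. Whether all arrays were normalized together is not given in the sources used here.

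A single gene symbol was listed for 34945 of the 45037 probe sets, more than 1 for 932, and no symbol for 9160. Groups were compared with limma 3.58.1 in R 4.3.3 (two-sided, Benjamini-Hochberg over all probe sets, threshold 0.01), tested on simulated data first. Single probe sets were also compared by exact permutation. In lists each gene is represented by the brightest of its probe sets across the 45 arrays, and 641 of 697 list entries were measured. SAM, which the study ran beside limma, permutes labels and was not run. Named are the targeted genes, the 20 smallest p-values, the 2 largest differences per list and the genes the study names. Members and lists were chosen with earlier results of these data known. Separate animals give the replicates, and their number limits the precision. Alternatives are given in the closing section. Plots were made with Matplotlib 3.10.9 in Python 3.11.15.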

Additional observations from a re-analysis of the deposited data

Results flagged for a closer look

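In 54 groups of 5 values examined for a mouse far from the rest, 7 were found. Chance gives about 1 in 20 for separate, unselected values. The 7 are measures of the same array or probe sets picked by a small p, so that rate does not apply to them. Of the 7, 3 were measures of the array of DC16 mouse 4: its position on the first principal component (85.0), its SD over probe sets (2.39) and its correlation with the group (0.9816). Trub2 was highest in the same mouse (11.66 on 1424611_x_at, the others at 10.85 to 10.96). Cers4 was lowest in DC16 mouse 1 (8.63), which still lay above every EC16 mouse. Stk25 was highest in EC16 mouse 2 (8.25) and Pus3 in EC16 mouse 5 (5.13), on the side away from the DC16 mice.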

How the results depend on the processing

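The single call in DC16 against EC16 mice did not hold under every setting. It was lost, leaving 0 probe sets, with 1 spread over all 7 groups (smallest adjusted p = 0.179) and with the replicate number as a block (0 called, smallest adjusted p = 0.19), and with 1 mouse left out the count was 0 to 1. The labels name nothing that same-numbered mice share, 3 of 5 such pairs had deviations correlated above 0.1 (−0.159 to 0.188 over all 5), and 4 of 10 mice correlated best with their own number, so the block was not taken as the design. Other settings left 1, though array weights gave 7 at an adjusted p under 0.05. The Ugt1a difference was 1.06 to 1.18 throughout. Insr and Irs1 kept their side of the threshold. Neighbours of Irs1 and Insr called numbered 0, or 1 with 100 genes on either side. With an unadjusted p under 0.001 they numbered 6, but 3 within 20 genes and 3 with 1 spread over all 7 groups, and 4 to 7 with 1 mouse left out. Probe sets called over the Western groups numbered 0, 1 after quantile normalization again and 3 without the narrow-range arrays. The difference between diets had 0 calls at an adjusted p under 0.01 in every setting, but 2 at 0.05 without the narrow-range arrays. The number of mice limits all of these.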

Other observations

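DC16 mouse 4 lay more than 1 log2 unit above all other chow mice at 124 probe sets and below them at 470. The genes farthest above were B3galt1 (10.18, the others 6.09 to 7.49) and Ric1 (9.67, the others 7.15 to 7.48). Insig1, a sterol-regulated protein, was at 12.39, with the others at 9.43 to 10.75. The gene farthest below was Pdia3, a protein disulfide isomerase of the endoplasmic reticulum (7.64, the others 9.92 to 10.34), followed by Prr16 (5.03, the others 7.01 to 7.91).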
